A study of Mus musculus with 13 samples.

Results

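Defb19, Defb36, Defb33, Bpifa3 and Bpifb5 encode secreted proteins of 2 families of epithelial defence genes, the beta-defensins (3 genes) and the proteins with a BPI fold (2 genes), and were followed through 13 libraries of adult mouse testis. They were picked by symbol from the 25965 genes of the deposited table as family members expressed in testis, so their expression in these libraries entered the choice, and the choice was made with results of these data known. All 5 averaged 1 RPM (reads normalised for library size) or more over the libraries and were therefore among the 16235 genes tested. The adjusted p-values below come from fits across all of those genes and are not independent support for the choice of the 5.

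The study compared whole testes of mice with and without Wfdc15a, a gene of the WAP four-disulfide core family of small secreted proteins, to ask about its role in making sperm. The groups were Wfdc15a-/- with title number 2 (KO number 2, n = 3, replicates 4 to 6), Wfdc15a-/- with title number 1 (KO number 1, n = 3, replicates 1 to 3), Wfdc15a+/- (Het, n = 4, of which replicate 1 has number 1 and the others number 2) and WT (n = 3, all number 2). Values of single libraries are listed in replicate order. Het and WT together made the control (n = 7), as in the study's design text. Of these only Het replicate 1 has number 1, so in KO number 1 against control genotype and title number cannot be told apart. All mice were 15 weeks old, the testes were stripped of their capsule, the tunica albuginea, and some 2 ng of RNA from each went into Smart-seq2, a method that copies full-length polyadenylated RNA, here with 11 PCR cycles. No source used here gives the strain, the design of the knockout allele or the meaning of the title number, so a line, litter or batch difference behind that number cannot be told apart from it. Reads in listed genes were 4.22 to 10.1 M per library (median 6.81 M). The depth behind the RPM values was somewhat larger, 4.51 to 11.1 M, so that 1 read was worth 0.0899 to 0.222 RPM.

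Wfdc15a itself had 54.1, 48.1 and 81.3 RPM in the KO number 2 libraries and 31.5, 19.4 and 33.4 RPM in the KO number 1 libraries, against 53.5 to 85.8 RPM (median 58.2) in the controls. The KO number 2 libraries overlapped the controls (log2 difference -0.11, limma adjusted p = 0.741). Wfdc15a was lower than in controls in KO number 1 (-1.21, SE 0.190, adjusted p = 0.000159), and 1.10 higher on the log2 scale in KO number 2 than in KO number 1 (adjusted p = 0.0486). The RNA level therefore does not separate the KO number 2 libraries from the controls, and whether the reads lie outside an altered part of the gene was not tested. All directions below are those of libraries labelled KO.

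Beta-defensins are short, positively charged peptides that are cut from a precursor, held in shape by disulfide bonds between conserved cysteines, and best known for disrupting microbial membranes. In the male tract many of them are made by the epididymis, and some coat sperm. Proteins with a BPI fold are larger and bind lipids. Their namesake, the bactericidal/permeability-increasing protein, binds the lipopolysaccharide of bacterial outer membranes, and the BPIFA and BPIFB branches (formerly PLUNC proteins) are made by epithelia of the airway and mouth.

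4 of the 5 genes lie on chromosome 2 (mm10). Defb19 is at chr2:152576086-152580312 on the minus strand with 2 exons, and Defb36 starts 24.0 kb away at chr2:152604327-152612729 on the plus strand, also with 2 exons. Bpifa3 (7 exons, chr2:154130336-154138356, plus strand) and Bpifb5 (15 exons, chr2:154223742-154240902, plus strand) are 85.4 kb apart and lie 1.52 Mb beyond Defb36. Wfdc15a is on the same chromosome, 9.96 Mb beyond Bpifb5. Defb33 lies alone of the 5 on chromosome 8 (chr8:20892669-20897723, plus strand, 3 exons). None of the 5 overlaps another listed gene.

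The coding sequences of the 3 defensins are shown because KO against control divides them into a pair called higher and 1 gene called lower. They are from the GENCODE M21 transcripts without the stop codon, 5′ to 3′, with the cysteine codons (TGT or TGC) in capitals.
Defb19: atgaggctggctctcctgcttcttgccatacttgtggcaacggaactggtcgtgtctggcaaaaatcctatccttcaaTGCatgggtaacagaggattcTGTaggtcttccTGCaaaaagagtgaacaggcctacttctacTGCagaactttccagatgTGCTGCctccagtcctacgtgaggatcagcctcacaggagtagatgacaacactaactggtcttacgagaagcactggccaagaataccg
Defb36: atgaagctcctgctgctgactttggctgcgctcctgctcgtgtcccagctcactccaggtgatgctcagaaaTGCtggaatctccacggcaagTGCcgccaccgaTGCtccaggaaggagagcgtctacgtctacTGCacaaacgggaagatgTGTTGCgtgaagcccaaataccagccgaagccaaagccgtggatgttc
Defb33: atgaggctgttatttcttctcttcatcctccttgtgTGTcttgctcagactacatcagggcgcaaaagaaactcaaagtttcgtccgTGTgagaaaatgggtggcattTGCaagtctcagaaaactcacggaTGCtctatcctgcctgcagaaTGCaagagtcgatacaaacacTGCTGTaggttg
Defb19 codes for 83 residues and Defb36 for 67, each with 6 cysteines. In both, the numbers of codons between successive cysteines are 6, 3, 9, 5 and 0. Defb33 codes for 62 residues with 7 cysteines, of which the first lies near the start, and the spacing of its last 6 is 6, 7, 6, 6 and 0. The neighbours on chromosome 2 thus share a cysteine spacing that differs from that of Defb33 in 3 of 5 intervals. The spacing in other defensins was not examined.

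Per kb of exon length, so that genes can be compared, Defb19 had the highest level in KO libraries and in controls. In libraries labelled KO the mean levels were 449.8 RPM per kb for Defb19 (381 to 522), 67.4 for Defb36 (48.6 to 85.3), 44.2 for Bpifa3 (35.0 to 54.1), 30.7 for Defb33 (16.2 to 50.2) and 9.47 for Bpifb5 (0.400 to 28.3). In controls they were 326 RPM per kb for Defb19 (227 to 432), 106 for Bpifa3 (80.2 to 123), 73.1 for Defb33 (61.4 to 89.0), 40.4 for Defb36 (23.2 to 52.2) and 6.18 for Bpifb5 (0.386 to 13.2). Defb36 was thus above Bpifa3 and Defb33 in mean level in KO libraries and below both in controls. Among neighbours in the order, the ranges of Defb36 and Bpifa3, of Bpifa3 and Defb33, and of Defb33 and Bpifb5 overlapped in KO libraries, and those of Bpifa3 and Defb33 overlapped in controls.

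**Figure D1:**
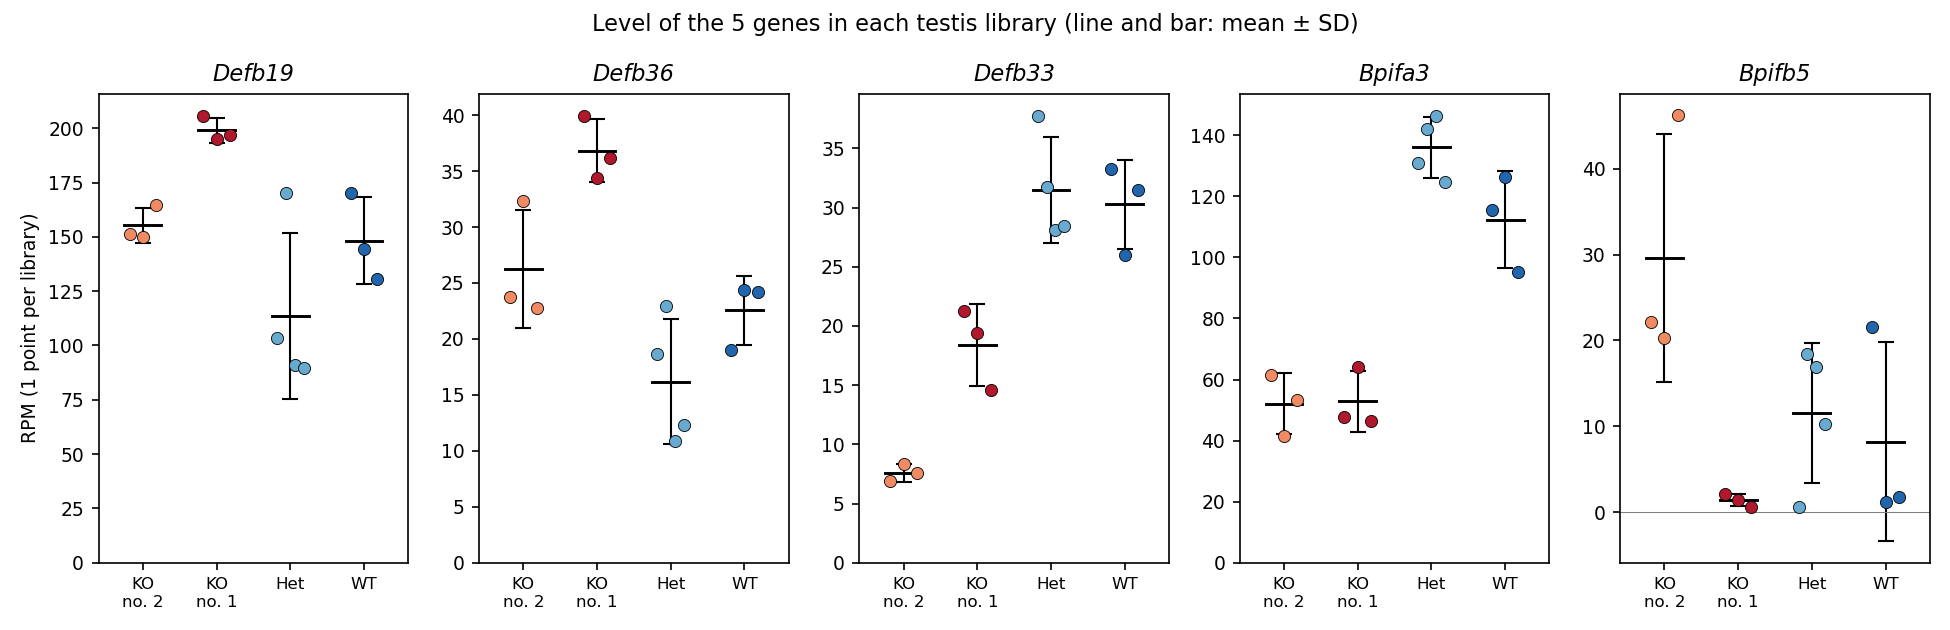
RPM of each of the 5 genes (vertical axis, own scale per gene) in the 13 testis libraries, by group, with KO title numbers 2 and 1 apart from Het and WT. Each point is 1 library, and the line and bar are the mean ± SD. Defb19 and Defb36 are highest in KO number 1, Defb33 and Bpifa3 are lower in both KO numbers than in every control library, and Bpifb5 is high in some and low in other libraries of KO, Het and WT.

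Defb19 and Defb36, the neighbouring pair, were higher in libraries labelled KO. Defb19 was described in mouse Sertoli cells, the somatic cells that nurse the germ cells, under its older name Tdl. Defb19 had 151, 150.2 and 165 RPM in KO number 2 and 206, 195 and 197 RPM in KO number 1, against 103, 170.0, 90.9 and 89.6 RPM in Het and 170.1, 144 and 130.5 RPM in WT. Every KO number 1 library lay above all controls, whereas the KO number 2 libraries lay inside the control range. Such a gap above the controls was seen in KO number 1 for 14.7% of all tested genes. The mean was 177 ± 24.8 RPM in KO libraries (SD, n = 6) and 128 ± 34.8 RPM in controls (SD, n = 7), a log2 difference of 0.50 (SE 0.147, limma adjusted p = 0.0173), with 6 of 6 KO libraries above the control mean on the log2(RPM + 1) scale on which all such differences are given.

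Defb36 had 23.7, 32.3 and 22.7 RPM in KO number 2 and 39.9, 34.4 and 36.1 RPM in KO number 1, against 18.7, 22.9, 10.9 and 12.3 RPM in Het and 19.0, 24.4 and 24.2 RPM in WT. The pattern was that of its neighbour, with KO number 1 above every control and KO number 2 overlapping the controls. The mean was 31.5 ± 6.92 RPM in KO libraries (SD, n = 6) and 18.9 ± 5.52 RPM in controls (SD, n = 7). The log2 difference was 0.73 (SE 0.195, limma adjusted p = 0.00884). In KO number 2 alone the log2 differences were 0.32 for Defb19 (95% interval -0.04 to 0.67, adjusted p = 0.231) and 0.49 for Defb36 (0.02 to 0.96, adjusted p = 0.162). In KO number 1 alone they were 0.67 for Defb19 (adjusted p = 0.00722) and 0.98 for Defb36 (adjusted p = 0.00395), where 22.7% of tested genes were called. The direct comparison of KO number 2 with KO number 1 was called for neither Defb19 (-0.36, adjusted p = 0.495) nor Defb36 (-0.49, adjusted p = 0.482). Every KO number 2 library lay below every KO number 1 library for both genes, as for 9.79% of all tested genes.

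The 2 calls depended on scaling and on the choice of control. Over all tested genes the median log2 difference of KO against control was 0.16, and 24.6% were called, 18.4% higher and 6.18% lower. With median-of-ratios scaling, which brings that median to 0.02, Defb19 was at 0.34 (adjusted p = 0.0923) and Defb36 at 0.59 (adjusted p = 0.0328). With quantile normalization Defb19 was at 0.49 (adjusted p = 0.0241) and Defb36 at 0.49 (adjusted p = 0.0694). Against WT alone neither Defb19 (0.25, adjusted p = 0.253) nor Defb36 (0.45, adjusted p = 0.188) was called. The same held among libraries of title number 2 alone (Defb19 0.27, adjusted p = 0.370, and Defb36 0.50, adjusted p = 0.230).

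The 2 neighbours followed each other from library to library. The correlation of their log2(RPM + 1) over 13 libraries was 0.87, and 0.72 after the means of KO number 1, KO number 2 and control were taken out, points that share depth and tissue makeup. The ratio of the RPM of Defb19 to that of Defb36 was 4.64 to 7.25 in KO libraries and 5.39 to 8.94 in controls. The genes most like Defb19 over the 13 libraries were C1qtnf6, a secreted protein with a C1q domain (r = 0.93), Gpx1, a glutathione peroxidase (0.93), and Chchd10, a mitochondrial protein (0.92). Those most like Defb36 were Amhr2, the receptor of anti-Müllerian hormone (0.96), Pvrl2, a nectin of cell junctions (0.96), and Tpm3, a tropomyosin (0.96). With group means removed these 6 correlations were 0.84 to 0.92.

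Sertoli cell markers moved in the same direction as this pair. Of 12 markers tested, 9 were higher in KO libraries and none lower (median log2 difference 0.85), among them Clu, an abundant secreted chaperone (2822 ± 518 RPM in KO against 1403 ± 344 RPM in controls), and the transcription factor Sox9 (0.97). Their summed level, most of it from Clu, was 2603 to 3347 RPM in KO number 2 and 3784 to 4174 RPM in KO number 1. In controls it was 1449 to 2422 RPM, and no marker was at 0. The median difference was 0.62 in KO number 2 and 1.04 in KO number 1. In KO number 2, where neither defensin was called, 7 of the 12 markers were called higher. All 7 Leydig cell markers were also higher (median 0.94). Of 6 spermatogonia markers 2 were higher and none lower (median 0.56). Of 4 peritubular markers 1 was higher (0.48), and of 4 endothelium markers 1 (0.10). Summed spermatogonia markers had 157 to 211 RPM in KO number 2, 211 to 255 RPM in KO number 1 and 106 to 156 RPM in controls. Higher levels were thus not particular to Sertoli cell markers. In bulk tissue, a change in the number of cells of a type and a change in the RNA per cell cannot be told apart, and the part of cell makeup in the 2 defensin differences was not tested.

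Defb33 was lower in libraries labelled KO, and lower in KO number 2 than in KO number 1. It had 6.87, 8.35 and 7.57 RPM in KO number 2 and 21.3, 19.4 and 14.6 RPM in KO number 1, against 37.7, 31.7, 28.1 and 28.5 RPM in Het and 33.3, 26.0 and 31.5 RPM in WT. The 3 sets did not overlap. KO number 2 lay below every control for 4.79% of tested genes and KO number 1 for 5.38%. KO number 2 lay below every KO number 1 library for 9.79%. The smallest value rests on 31 reads. The KO mean was 13.01 ± 6.34 RPM (SD, n = 6) and the control mean 31.0 ± 3.90 RPM (SD, n = 7), a log2 difference of -1.31 (SE 0.222, limma adjusted p = 0.000254). KO libraries lay wholly below the controls for 2.89% of all tested genes.

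By number, the log2 difference of Defb33 from controls was -1.89 in KO number 2 (SE 0.175, adjusted p = 2.26e-06) and -0.73 in KO number 1 (SE 0.175, adjusted p = 0.00509). At the threshold 4.64% of tested genes were lower in KO number 2 and 5.74% in KO number 1. KO number 2 was below KO number 1 by a log2 difference of -1.16 (95% interval -1.59 to -0.73, limma adjusted p = 0.0208), in a comparison in which 0.179% of tested genes were called (29 genes), and 0.0986% were called lower. That call was lost with limma-voom on reads (-1.26, adjusted p = 0.0928) and without KO replicate 1, 2 or 4 (adjusted p = 0.0862, 0.0981 and 0.0591). The call in KO number 1 against control was lost without KO replicate 3 (-0.58, adjusted p = 0.0534). Among libraries of title number 2 alone, KO against control was -1.84 (adjusted p = 1.06e-05).

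Markers of late spermatids moved with Defb33. All 8 were lower in KO libraries (median log2 difference -1.12), including the protamines Prm1 (-1.22) and Prm2 (-1.28), which package sperm DNA, and Oaz3 (-1.12), an antizyme of spermatids. Their summed level was 4502 to 5913 RPM in KO number 2 and 4647 to 7135 RPM in KO number 1, against 10846 to 15682 RPM in controls. The median difference of the 8 was -1.29 in KO number 2 and -1.02 in KO number 1, and between the KO numbers none was called (median -0.29). For Defb33 the same 3 values were -1.89, -0.73 and -1.16. Round spermatid markers (1 of 6 lower, median -0.07) and spermatocyte markers (1 of 6 lower, median 0.11) differed less, against a median of 0.16 over all tested genes. The called genes were Tssk2 (-0.61) and Pgk2 (-0.57). Round spermatid markers summed to 1283 to 1460 RPM in KO libraries and 1458 to 1658 RPM in controls. Spermatocyte markers summed to 8086 to 9141 RPM in KO libraries and 8465 to 9857 RPM in controls, most of it from Ldhc. The genes most like Defb33 were Samd13 (r = 0.95), Hils1, a linker histone of spermatids (0.95), and Sgca, a sarcoglycan (0.95). With group means removed the correlation with Samd13 was 0.36, against 0.87 for Hils1 and 0.85 for Sgca, which overlap each other on chromosome 11 and may share reads. The part of late spermatids in the difference was not tested.

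Bpifa3 was lower in libraries labelled KO by about the same amount with both title numbers. It had 61.4, 41.6 and 53.3 RPM in KO number 2 and 47.8, 64.2 and 46.5 RPM in KO number 1, against 131, 142, 146 and 125 RPM in Het and 115, 126 and 95.2 RPM in WT. All 6 KO libraries lay below all 7 controls, as for 2.89% of all tested genes (4.79% for KO number 2 and 5.38% for KO number 1). The mean was 52.5 ± 8.89 RPM in KO libraries (SD, n = 6) and 126 ± 17.1 RPM in controls (SD, n = 7). The log2 difference was -1.25 (SE 0.117, limma adjusted p = 8.45e-07), a 2.38-fold lower level of RPM + 1.

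The difference of Bpifa3 was -1.26 in KO number 2 (SE 0.147, adjusted p = 1.37e-05) and -1.24 in KO number 1 (SE 0.147, adjusted p = 1.25e-05), where 4.64% of tested genes were called lower in KO number 2 and 5.74% in KO number 1. KO number 2 minus KO number 1 was -0.02 (95% interval -0.38 to 0.34, adjusted p = 0.978). The call held under every alternative run, including controls of WT alone (-1.09, adjusted p = 0.00127) and title number 2 alone (-1.25, adjusted p = 5.40e-05). The late spermatid markers given above moved by a like amount (median -1.12), and their part was not tested. The genes most like Bpifa3 were Prss39, a serine protease of testis (r = 0.97), Dscaml1, a cell adhesion protein (0.97), and Tsks, a substrate of testis-specific kinases (0.96). With group means removed these were 0.82, 0.76 and 0.63. Bpifa3 and Defb33, which had both fallen, correlated at 0.79 over the libraries but at -0.12 with group means removed.

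**Figure D2:**
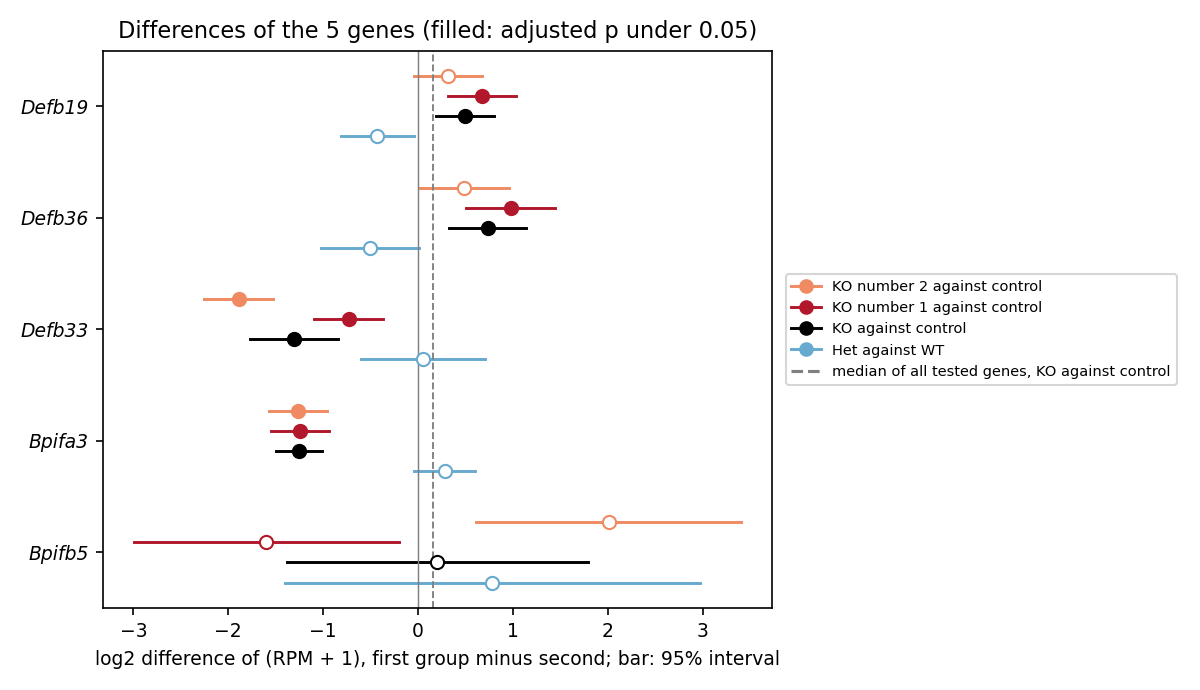
Log2 difference of RPM + 1 (horizontal axis) for each of the 5 genes in 4 comparisons, with the 95% interval from limma. Filled points have an adjusted p under 0.05, and the dashed line is the median of all tested genes in KO against control (0.16). The points of Bpifa3 for KO numbers 2 and 1 nearly coincide (-1.26 and -1.24), those of Defb33 lie apart (-1.89 and -0.73), and those of Bpifb5 lie on opposite sides of 0.

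The plot of log2 differences sets the 4 genes called in KO against control, as were 24.6% of tested genes, beside Bpifb5. Of the 4, Defb19 and Defb36 were not called against WT alone, as given above. For Bpifb5, the neighbour of Bpifa3, no group difference was called. Bpifb5 had 22.2, 20.3 and 46.3 RPM in KO number 2 and 2.10, 1.49 and 0.654 RPM in KO number 1, against 0.631, 18.4, 16.9 and 10.3 RPM in Het and 21.6, 1.21 and 1.82 RPM in WT. The libraries fell apart with a gap between 2.10 and 10.3 RPM. Above it were all of KO number 2, Het replicates 2 to 4 and WT replicate 1, with 61 to 403 reads each. Below it were all of KO number 1, Het replicate 1 and WT replicates 2 and 3, with 4 to 15 reads each. Each genotype thus had libraries on both sides of the gap. By title number, 7 of the 9 libraries of number 2 lay above the gap and 2, WT replicates 2 and 3, below it, while all 4 libraries of number 1 lay below it.

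The mean of Bpifb5 was 15.5 ± 17.9 RPM in KO libraries (SD, n = 6) and 10.1 ± 8.99 RPM in controls (SD, n = 7). The log2 difference was 0.21 (95% interval -1.38 to 1.79, limma adjusted p = 0.876), with 3 KO libraries above and 3 below the control mean. KO number 2 was at 2.01 from controls (SE 0.671, adjusted p = 0.0534) and KO number 1 at -1.60 (SE 0.671, adjusted p = 0.0911). KO number 2 minus KO number 1 was 3.61 (95% interval 1.96 to 5.26, adjusted p = 0.0565), and all KO number 2 libraries lay above all KO number 1 libraries, as for 7.45% of tested genes. The call of KO number 2 against control was made with limma-voom (2.33, adjusted p = 0.0210), with genes of a mean of at least 5 RPM (adjusted p = 0.0459), and without WT replicate 1 or Het replicate 2 or 3 (adjusted p = 0.0266, 0.0329 and 0.0363). Without WT replicate 2 or Het replicate 1, KO number 1 was called lower than control (-1.88, adjusted p = 0.0382, and -1.95, adjusted p = 0.0238). KO number 2 was called above KO number 1 without WT replicate 2 or Het replicate 1 (adjusted p = 0.0440 and 0.0147) and with quantile normalization (adjusted p = 0.0498). Leaving out either control library keeps that difference at 3.61 and changes only the spread estimated in the shared fit. These calls thus depended on single libraries and on the settings named.

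The genes whose levels followed Bpifb5 most closely were Klk1b16, a glandular kallikrein (r = 0.89), Mvk, mevalonate kinase (0.88), and Art1, an ADP-ribosyltransferase (0.87). As the libraries lie in separate sets, these values serve only to rank genes. Klk1b16 had 22.8, 9.72 and 14.9 RPM in KO number 2 and 1.54, 1.49 and 1.31 RPM in KO number 1, against 0.631, 13.5, 4.68 and 5.05 RPM in Het and 7.69, 2.55 and 4.90 RPM in WT. Its highest library, KO replicate 4, had 22.2 RPM of Bpifb5, and its lowest, Het replicate 1, was also the lowest for Bpifb5 (0.631 RPM).

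The gene most opposite to Bpifb5 was Ubash3a, a regulator of lymphocyte signalling, named after its values were seen. It had 2.66, 0.911 and 2.30 RPM in KO number 2 and 23.0, 21.1 and 23.6 RPM in KO number 1, against 43.2, 4.22, 0.826 and 12.1 RPM in Het and 1.52, 20.9 and 22.5 RPM in WT. Het replicate 4, which had the lowest Bpifb5 above the gap, had 12.1 RPM of Ubash3a, between the values of the other libraries (4.22 RPM or less, or 20.9 RPM or more). Ubash3a lies on another chromosome (chr17:31207873-31242202). The 25 genes with the largest correlation of either sign with Bpifb5 (at least 0.811 in size) were taken with predicted and Rik genes included, unlike the named genes. Of the 25, 8 were on chromosome 17, which holds 4.88% of tested genes, and 0 on chromosome 2, which holds 8.41%. Chromosome 17 is that of Ubash3a, which is itself among the 8, so the count is not independent of the ranking. Other chromosomes were not counted, and a reason for the count was not tested.

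**Figure D3:**
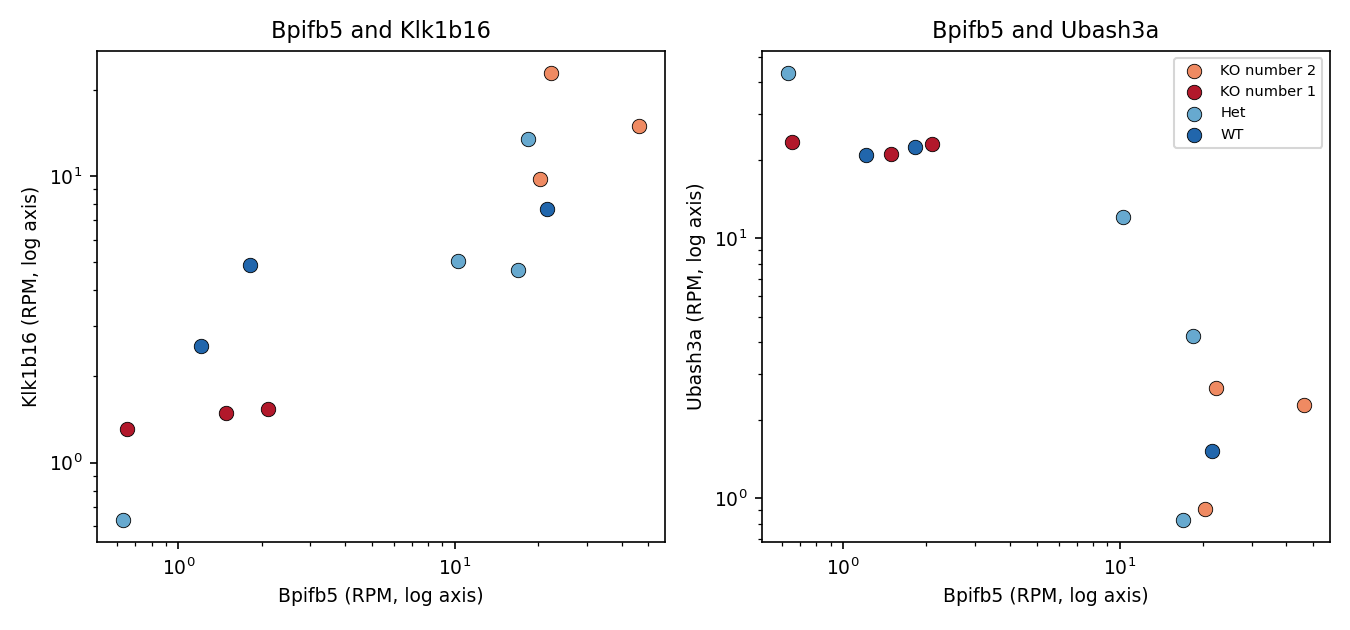
Bpifb5 (horizontal axis, RPM, log scale) against Klk1b16 on the left and Ubash3a on the right (vertical axes, RPM, log scale), 1 point per library, coloured by group. No library lies between 2.10 and 10.3 RPM of Bpifb5, and both sides of that gap hold KO, Het and WT libraries. Libraries with more Bpifb5 tend to have more Klk1b16 and less Ubash3a.

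The promoters of Bpifa3 and Bpifb5 are shown because the 2 genes are neighbours of 1 family with unlike patterns across the libraries. Each is the 250 bases before the gene's start on the plus strand (RefSeq, GRCm38.p6), with matches to the motifs searched in capitals.
Bpifa3, chr2:154130086-154130335: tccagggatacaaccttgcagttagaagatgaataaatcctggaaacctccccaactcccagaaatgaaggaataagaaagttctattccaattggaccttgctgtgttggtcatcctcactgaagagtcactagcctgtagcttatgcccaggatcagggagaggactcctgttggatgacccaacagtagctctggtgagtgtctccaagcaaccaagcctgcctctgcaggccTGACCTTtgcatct
Bpifb5, chr2:154223492-154223741: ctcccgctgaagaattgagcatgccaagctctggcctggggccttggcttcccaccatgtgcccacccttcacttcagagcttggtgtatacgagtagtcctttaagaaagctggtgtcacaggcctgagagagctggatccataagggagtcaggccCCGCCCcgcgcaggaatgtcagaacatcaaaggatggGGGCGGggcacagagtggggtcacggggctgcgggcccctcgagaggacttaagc
The Bpifa3 window has 48.8% G and C and 0 CpG, and the Bpifb5 window 60% and 9 CpG, against a median of 52.0% over 27025 promoters. Both strands of these windows and of those of Defb36 and Defb33 were searched for 5 short motifs, none of which overlapped another where found. The nuclear receptor core AAGGTCA was found once, in Bpifa3, on the minus strand with its leftmost base at -14 from the start, and it is in 4.05% of promoters. The GC box GGGCGG was found in Bpifb5 on both strands, at -92 and -55, and it is in 32.9% of promoters. The SOX core ACAAAG was found in Defb36 at -25 and in Defb33, on the minus strand, at -151, and it is in 16.5% of promoters. The GATA core AGATAA, which is in 10.3% of promoters, was in none of the 4 windows. Nor was the cyclic AMP response element TGACGTCA, which is in 1.62%. A match describes letters only.

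Within the controls, no difference between Het and WT was called for any of the 5 genes. The log2 difference of Het minus WT was -0.43 for Defb19 (95% interval -0.81 to -0.05, limma adjusted p = 0.761), -0.50 for Defb36 (-1.02 to 0.01, adjusted p = 0.843), 0.05 for Defb33 (-0.59 to 0.70, adjusted p = 0.993), 0.28 for Bpifa3 (-0.04 to 0.60, adjusted p = 0.890) and 0.78 for Bpifb5 (-1.40 to 2.97, adjusted p = 0.982). No gene of the 16235 (0.0%) was called by limma, and none by limma-voom, and 957 genes (5.89%) had an unadjusted p under 0.05 in limma. Het replicates 3 and 4 had the lowest Defb19 and Defb36 of all libraries, while Het replicate 2 was level with WT replicate 1 for Defb19.

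Other defensins had low levels in these testes. The table held 41 other genes of the family, of which 6 were tested and 35 were below the level tested, 17 of them without a read in any library. None of the 6 was called in KO against control, where 24.6% of all tested genes were called (median log2 difference -0.17, against 0.16 over all tested genes). The 41 summed to 18.8 to 33.1 RPM in KO libraries and 20.1 to 33.3 RPM in controls. Defb45 had 8.08 ± 2.87 RPM in KO libraries and 6.41 ± 2.59 RPM in controls (SD, n = 6 and 7, as in all means that follow). Defb14 had 6.17 ± 1.25 RPM in KO libraries and 6.89 ± 2.22 RPM in controls, and Defb30, which overlaps Defb42 and may share reads with it, had 5.87 ± 1.82 RPM in KO libraries and 6.91 ± 1.003 RPM in controls. The widest difference was that of Defb21, with 0.613 ± 0.396 RPM in KO libraries and 1.65 ± 0.732 RPM in controls (-0.70, limma adjusted p = 0.0569).

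Of 15 other genes with a BPI fold or a related lipid-binding fold, 5 were tested, and 2 were higher in KO libraries, as were 18.4% of all tested genes. Lbp, which carries lipopolysaccharide to its receptor, had 47.9 ± 6.79 RPM in KO libraries and 20.1 ± 4.52 RPM in controls (log2 difference 1.23, SE 0.151, limma adjusted p = 1.1e-05). Its groups did not overlap, and it was higher in KO number 2 (1.15) and in KO number 1 (1.30). In KO number 1 alone, 14.7% of all tested genes lay above every control. Pltp, which transfers phospholipids between lipoproteins, had 29.4 ± 7.11 RPM in KO and 14.7 ± 3.98 RPM in controls (0.96, SE 0.185, adjusted p = 0.0008). Bpi itself had 67.03 ± 13.5 RPM in KO and 59.9 ± 7.36 RPM in controls (0.15, adjusted p = 0.405), Bpifb2 had 3.85 ± 1.58 RPM in KO and 5.83 ± 2.32 RPM in controls (-0.48, adjusted p = 0.197), and Bpifb1 was at 0.33 (adjusted p = 0.431). The called relatives thus rose where Bpifa3 fell.

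Of 19 other secreted antimicrobial proteins in the table, 8 were tested, and 3 were higher and none lower, against 18.4% higher and 6.18% lower of all tested genes. Lcn2, which withholds iron from bacteria by binding siderophores, had 2006 ± 609 RPM in KO libraries and 593 ± 275 RPM in controls (1.82, limma adjusted p = 1.48e-05). Lyz2, the lysozyme of macrophages, had 70.0 ± 25.1 RPM in KO and 27.8 ± 8.07 RPM in controls (1.27, adjusted p = 0.000108), and Rnase4, a secreted ribonuclease, had 11.2 ± 4.396 RPM in KO and 5.44 ± 1.66 RPM in controls (0.86, adjusted p = 0.0164). Rnase4 was at 0.42 in KO number 2 (adjusted p = 0.328, overlapping the controls) and at 1.30 in KO number 1 (adjusted p = 0.00183), whereas Lcn2 and Lyz2 were called higher with both numbers. Macrophage and leukocyte markers, a list that includes Lyz2, moved with these, with 3 of 5 tested higher (median 0.84) and summed levels of 90.2 to 204.5 RPM in KO and 46.1 to 80.9 RPM in controls. The lysozyme-like proteins of sperm were not called in KO against control. Spaca3 had 148 ± 20.4 RPM in KO and 163 ± 20.1 RPM in controls, Lyzl6 had 107 ± 10.7 RPM in KO and 104 ± 11.6 RPM in controls, and Lyzl4 had 78.8 ± 7.43 RPM in KO and 92.6 ± 6.30 RPM in controls (-0.23, adjusted p = 0.0581). By number, Lyzl4 was at -0.13 in KO number 2 (adjusted p = 0.426) and was called lower in KO number 1 (-0.33, adjusted p = 0.0251). There its groups did not overlap, as for 5.38% of tested genes below controls.

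**Figure D4:**
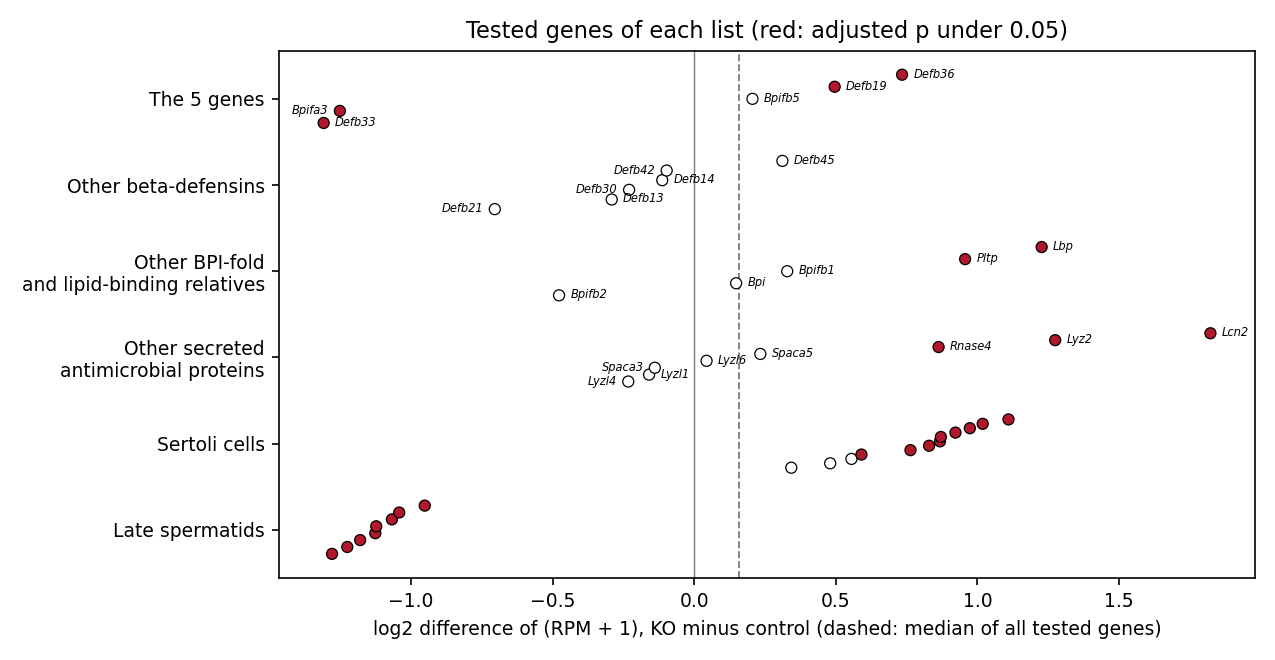
Log2 difference of RPM + 1, KO minus control (horizontal axis), of each tested gene (1 point) in 6 lists. Red points have an adjusted p under 0.05, and the dashed line is the median of all tested genes (0.16). Defb33 and Bpifa3 lie with the late spermatid markers at the left, Defb19 and Defb36 at the right with but below most Sertoli cell markers, and no other defensin is red.

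As the plot of lists shows, the differences of Defb33 (-1.31) and Bpifa3 (-1.25) lay among or below the 8 late spermatid markers (Prm2, the lowest, at -1.28), and those of Defb19 (0.50) and Defb36 (0.73) lay below the median of the Sertoli cell markers (0.85). Markers of epididymis and rete testis, where defensins are also made, were in part detected. Of the 16 markers 11 were below the level tested, and Lcn5 and Lcn8, which define the proximal epididymis, had 0 reads in all 13 libraries, where 3 reads would be 0.270 to 0.665 RPM. Of the 5 tested, Cuzd1 was higher (6.36 ± 2.69 RPM in KO and 2.88 ± 1.73 RPM in controls) and Cst8, which testis also expresses, was lower (83.6 ± 12.7 RPM in KO and 136 ± 21.5 RPM in controls). Rnase10, Krt8 and Krt18 were not called, with means of 5.46, 4.99 and 1.11 RPM in KO libraries and 5.34, 3.81 and 0.963 RPM in controls. The summed level of the list was 85.7 to 119.5 RPM in KO libraries and 119.9 to 178 RPM in controls, most of it from Cst8. The part of such tissue in the levels of the 5 genes was not tested.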

How the data were processed

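The deposited table holds log2 RPM values made by the authors for 25965 genes in 13 libraries. FastQC 0.11.8, Trim Galore 0.6.6 and mm10 are named in the submitters' processing notes. Sources used here name no aligner, counting program or strand setting. In each library the lowest deposited log2 value stands for 0.9 read, and at least 99.96% of the values above it were whole reads (to within 0.01 read). Values at that lowest level were replaced by 0. As PCR copies were not marked by molecular identifiers, the limit for a count of 0 (3 reads, 95% confidence) covers counting error only.

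Groups came from the labels. Nothing states that libraries are separate mice beyond the design text, so p-values measure the spread between these libraries. limma 3.58.1 in R 4.3.3 was fitted with a mean-variance trend to log2(RPM + 1) for genes averaging 1 RPM or more over all libraries, two-sided, with Benjamini-Hochberg adjustment over 16235 genes and a threshold of 0.05. KO against control had 2 groups. KO numbers 2 and 1 and control shared 1 fit, and WT, Het and KO another. Differences between comparisons that share controls were tested only by the direct contrast. The script was tested on simulated data. Alternatives were pseudocounts of 0.1 and 0.5 RPM, no filter, a filter of 5 RPM, median-of-ratios and quantile scaling, limma-voom on recovered reads, other controls, a replicate block and each library left out.

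Named genes were the 5 members, then called or abundant genes of 3 related lists, cell type markers, and for each member the 3 genes of highest correlation (predicted and Rik genes left out). The members and lists were chosen with earlier results of these data known. Coordinates are those of the deposited table, coding sequences are from GENCODE M21 and promoters from RefSeq, where 4 of the 5 genes matched. Defb19 had no promoter entry.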

Additional observations from a re-analysis of the deposited data

Results flagged for a closer look

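Defb33 differed between the KO title numbers when both were set against the same 7 controls. Only Het replicate 1 of these (37.7 RPM, the highest control) has number 1, so genotype and title number cannot be told apart in KO number 1 against control. The log2 difference from control was -1.89 in KO number 2 and -0.73 in KO number 1, and their direct contrast was -1.16 (limma adjusted p = 0.0208). All 3 KO number 2 libraries lay below all 3 KO number 1 libraries, as for 9.79% of tested genes. The call was lost with limma-voom and in 3 of 13 runs with 1 library left out, as given above. By Dixon's criterion no single library of the 5 genes stood apart in a group of 4 or more. Het replicate 2 came closest, for Defb19 (170.0 RPM, against 89.6 to 103 RPM in the other Het libraries), with a gap of 0.8289 of the group's range where the limit is 0.829.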

How the results depend on the processing

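Of the values of the 5 genes under all alternatives, 486 kept direction and side of the threshold, 10 gained a call, 11 lost one and 13 changed sign. The 486 include runs without a library that is in neither group compared. There the difference could not change, only the estimate of the spread, so the count overstates how far the values were put to a test. Bpifa3 and Defb33 stayed lower in KO against control under every alternative run, and the calls lost for Defb19 and Defb36 are given above. The replicate numbers of the labels do not pair the libraries (10 same-numbered pairs, r of their deviations -0.0835 to 0.126). With a replicate block 3830 genes were called in KO against control, against 3997 without it, and Bpifb5 was at -0.98 (adjusted p = 0.343). Replicate numbers 5 and 6 occur only in KO, so the block leaves those libraries no weight in the difference. That fit rests on the KO number 1 libraries and KO replicate 4, and does not weigh the KO numbers alike. Bpifb5, at 0.21 in KO against control, was also at -0.020 with quantile normalization and at -0.13 against Het alone, and ran over -0.30 to 0.67 with 1 library left out. The count of 3997 became 1311 against WT alone and 1515 with title number 2 alone, which use fewer libraries. The share of higher calls in it was 74.9%, against 49.9% with median-of-ratios scaling and 48.8% with quantile normalization. With 1 library left out, calls ran over 3262 to 3997 in KO against control, 2268 to 3759 in KO number 1 against control (3686 with all, 2268 without KO replicate 3) and 1041 to 2222 in KO number 2 against control (2020 with all, 1041 without KO replicate 5, 1304 without KO replicate 6). KO number 2 against KO number 1 had 29 calls, 19 with a pseudocount of 0.1 RPM, 69 with quantile normalization and 11 to 95 with 1 library left out (95 without Het replicate 1, and 19, 11, 17 and 13 without KO replicates 1, 2, 3 and 5). Het against WT had 0 to 3 (3 without WT replicate 1). With 1 library left out, Bpifa3 in KO number 2 against KO number 1 ran over -0.15 to 0.13 and Defb33 in Het against WT over -0.048 to 0.12. The causes of these shifts were not tested. Bpifb5 had the fewest reads of the 5 genes, with 4 to 15 reads in its 6 lowest libraries. The shallowest library, KO replicate 4 (4.22 M reads), was not among them and had 100 reads of it.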
